A study of Homo sapiens with 2 samples.

Results

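Genes that write, copy, read and erase DNA methylation were examined in cisplatin treated cells with and without FZR1 knockout. The 10 genes were taken by their current symbols and Entrez gene IDs, as a set chosen with earlier results of these data known. They are UHRF1, UHRF2, DNMT1, DNMT3A, DNMT3B, HELLS, TET1, TET2, TET3 and MBD2, and all 10 were found among the 23033 genes with a value. Total RNA of 2 samples was sequenced on the BGISEQ-500 platform, 1 library for each genotype, both labelled T-47D and both with 2 µg/mL cisplatin. The control cells carried wild type FZR1, and the FZR1 ko cells were a stable line made with CRISPR/Cas9 from a lentiviral vector and single cell cloning, so the knockout is 1 clone. Cells without cisplatin were not analysed here, and the labels give no time of treatment. With 1 library per genotype there is no replicate error, no test and no p-value, and every difference below describes these 2 libraries. FZR1 is a coactivator of the anaphase promoting complex (APC/C), a ubiquitin ligase that is active in G1, and the RNAseq was made to look for molecules of cisplatin induced apoptosis.

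In mammals most methyl groups on DNA sit on the cytosine of CpG pairs. After replication the new strand carries none, and UHRF1 binds the hemimethylated site and brings DNMT1, the maintenance methyltransferase, to copy the mark. DNMT3A and DNMT3B place methyl groups on new sites, HELLS is a remodelling ATPase that opens packed chromatin to these enzymes, the TET dioxygenases oxidise the methyl group towards its removal, and MBD2 reads methylated CpG and recruits the NuRD corepressor complex. UHRF1, DNMT1 and HELLS are known as genes of proliferating cells, and UHRF1 protein has been described as a substrate of the APC/C bound to FZR1. These data hold mRNA only, so neither protein levels nor DNA methylation were measured.

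The values are FPKM as the authors deposited them, fragments per kilobase of transcript scaled to the mapped fragments of the library. They hold no read counts, so the depth behind a value is unknown. FZR1 itself had 12.3 FPKM in the control library against 10.1 in FZR1 ko, which does not check the labels, since Cas9 edits often spare the transcript. The table's columns carry no sample titles, and the column that names the drug but no FZR1 guide was taken as control, so every direction here rests on that reading. In both libraries 6 of 11 luminal breast markers were under 1 FPKM, among them ESR1, PGR and GATA3, which T-47D cells are known to express, and CDH1 and KRT19. The luminal keratins KRT8 (829 and 998 FPKM, control first) and KRT18 (552 and 740 FPKM) were high, XBP1 had 93.4 and 72.6 FPKM, TFF1 had 9.80 and 7.52 FPKM, and FOXA1 had 5.07 and 4.65 FPKM. The mesenchymal gene VIM was also high (315 and 295 FPKM), and KRT17 had 103 and 55.8 FPKM. These were the highest of 10 mesenchymal and basal markers. FN1, SNAI2, ZEB1, ZEB2 and CDH2 lay between 1.54 and 15.3 FPKM, and KRT5, KRT14 and TP63 were under 1 FPKM in both libraries. Some of these markers thus go against the label T-47D and others do not, in both libraries, and the cells are named here only by their genotype. The summed level of 11 blood, vessel and fibroblast markers was 14.1 FPKM in the control library against 9.65 in FZR1 ko.

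Promoter sequences are shown first, for UHRF1 and HELLS because they held E2F letters and for DNMT1, DNMT3B and MBD2 because, with UHRF1, they were the members kept with the larger differences. The promoter sequences used here hold 21 RefSeq starts on GRCh38.p14 for the 10 genes, and the 250 bases before each were read. A first or only listed start is meant among these 21. The RefSeq genes of UHRF1, DNMT3B and TET3 begin upstream of their listed starts, at 4903080, 32762385 and 73983631. The bases before those positions were not read, so the counts below do not cover them. E2F factors drive genes of the G1/S transition, and their letters were searched as TTTCCCGC, TTTCGCGC, TTTGCCGC or TTTGGCGC on both strands. Of all 35116 promoter windows, 2.79% held at least 1 of these. Among the members they were in 3 windows, 2 of UHRF1 and 1 of HELLS, and in none of DNMT1 or the other genes. UHRF1 had them 7 bases before its first listed start, at 4909501, which lies inside the RefSeq gene. At another start of UHRF1 they were 153 bases before it. HELLS had them 69 bases and 1 base before its start. NF-Y letters (CCAAT, both strands) were in 7 of the 21 windows, in 5 genes, and in 32.0% of all windows. No E2F match overlapped a CCAAT match. A match describes letters only, and a missing match says nothing about the factor. In the following lines capitals mark E2F letters or their reverse complement, and each stretch is read in the direction of its gene. No more than 30 bases are shown around a match where GENCODE 44 has an exon of a minor transcript. The stretch of DNMT3B comes from inside the gene, and the bases before the point where its RefSeq gene begins were not read.

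UHRF1 before its first listed start, plus strand, within the gene, chr19:4909471-4909500: caaatgccgagttttcGCGGGAAAaaaatc

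UHRF1 before the start at 4910144, plus strand, within the gene and outside every exon of GENCODE 44, chr19:4909894-4910143: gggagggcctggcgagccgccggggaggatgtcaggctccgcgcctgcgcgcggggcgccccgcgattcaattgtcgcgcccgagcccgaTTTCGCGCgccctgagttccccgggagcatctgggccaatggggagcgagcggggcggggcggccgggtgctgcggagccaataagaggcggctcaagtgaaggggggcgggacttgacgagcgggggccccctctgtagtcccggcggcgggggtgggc

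HELLS, plus strand, nearest to its start, chr10:94545758-94545787: aggtatcgcgagatgacaggatTTTCCCGC

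HELLS, plus strand, farther site, chr10:94545701-94545730: aaccgcaagctGCGCCAAAtctcgcgcagc

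DNMT1, minus strand, the 68 bases of its window outside every exon of GENCODE 44, chr19:10195136-10195203: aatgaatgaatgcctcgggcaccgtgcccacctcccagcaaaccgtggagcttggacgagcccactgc

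DNMT3B before its only listed start, plus strand, within the gene and outside every exon of GENCODE 44, chr20:32779602-32779851: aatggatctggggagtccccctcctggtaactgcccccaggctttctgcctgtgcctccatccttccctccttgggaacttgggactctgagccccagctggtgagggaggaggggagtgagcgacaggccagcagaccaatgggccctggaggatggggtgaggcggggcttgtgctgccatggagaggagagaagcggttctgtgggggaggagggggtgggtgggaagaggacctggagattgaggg

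MBD2, minus strand, before the gene, chr18:54224670-54224919: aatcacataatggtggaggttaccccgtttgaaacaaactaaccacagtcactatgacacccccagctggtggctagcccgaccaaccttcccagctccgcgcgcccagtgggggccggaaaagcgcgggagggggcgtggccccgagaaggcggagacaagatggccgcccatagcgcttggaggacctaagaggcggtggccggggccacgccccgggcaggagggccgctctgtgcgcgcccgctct

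CpG pairs were counted in the same windows. The UHRF1 window at 4910144 held 32, the one before its first listed start held 28, that of DNMT1 held 21 and that of MBD2 also held 21, and the median of all windows was 11. Over the 21 member windows the count ran from 3, at a start of DNMT3B inside the gene, to 41 at a further start of UHRF1, with a median of 21. Several of these genes thus carry many CpG pairs before their own starts, but their methylation was not measured.

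The 8 members that reached 1 FPKM all had the higher FPKM in FZR1 ko, where 49.6% of all genes that did so were higher. Among them the difference was largest for the maintenance pair UHRF1 and DNMT1, 1.93-fold each, intermediate for DNMT3B and MBD2, and smaller for TET3, HELLS, TET2 and UHRF2. Where a pair of FPKM is given without library names, control comes first. In bulk RNA a smaller share of expressing cells and less RNA per cell cannot be told apart. The order of the 10 genes by level was the same in both libraries. DNMT1 was highest, followed by UHRF1, UHRF2, HELLS, DNMT3B, MBD2, TET3, TET2, DNMT3A and TET1. Because no spread is known, neighbours in this order cannot be said to differ.

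**Figure D1:**
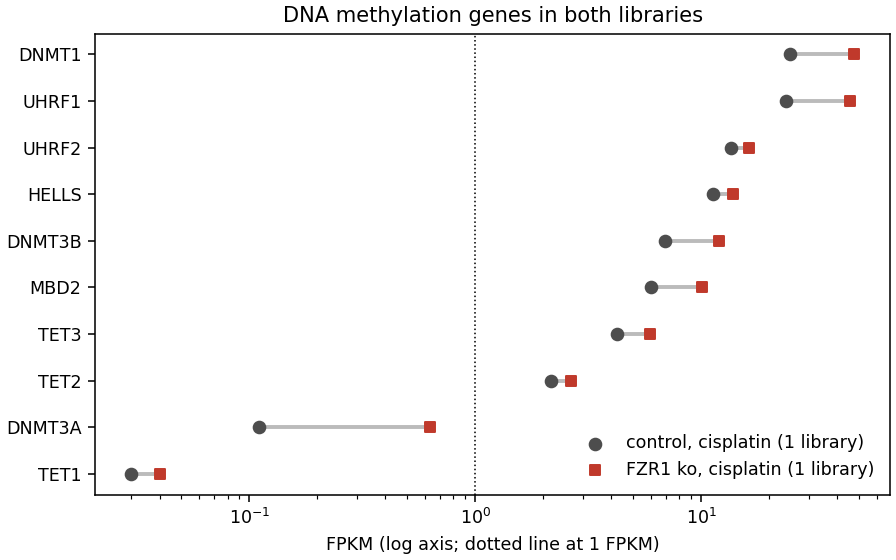
FPKM of the 10 DNA methylation genes on a log axis, with a grey circle for the control library and a red square for the FZR1 ko library of cisplatin treated cells. Every square lies to the right of its circle, from 24.6 to 47.4 FPKM for DNMT1 at the top to 0.03 and 0.04 FPKM for TET1 at the bottom.

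UHRF1 (Entrez gene 29128, chromosome 19 from 4903080 to 4962154 on GRCh38) had 23.6 FPKM in the control library against 45.5 in FZR1 ko, a ratio of 1.93. DNMT1 (Entrez gene 1786, chromosome 19 from 10133346 to 10194953) had 24.6 FPKM in the control library against 47.4 in FZR1 ko, also a ratio of 1.93. The level of DNMT1 divided by that of UHRF1 was 1.04 in both libraries, so their mRNA levels in FPKM kept the same proportion. In control 71.3% of the genes kept for the comparison lay below UHRF1 in level, and in FZR1 ko 85.0% did. The values for DNMT1 were 72.2% and 85.7%.

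UHRF2 is a paralogue of UHRF1 with the same kinds of domain that does not replace it in maintenance. It had 13.5 FPKM in the control library against 16.2 in FZR1 ko, a ratio of 1.20. Thus UHRF1 was 1.75 times UHRF2 in control and 2.80 times UHRF2 in FZR1 ko, and its share of their summed FPKM was 63.6% and 73.7%. HELLS (chromosome 10), whose loss lowers DNA methylation widely, had 11.3 FPKM in the control library against 13.8 in FZR1 ko, a ratio of 1.23. UHRF1 was 2.09 times HELLS in control and 3.29 times HELLS in FZR1 ko.

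Of the de novo enzymes only DNMT3B was above 1 FPKM. DNMT3B (chromosome 20) had 6.90 FPKM in the control library against 11.9 in FZR1 ko, a ratio of 1.73. DNMT3A had 0.11 FPKM in the control library against 0.63 in FZR1 ko, where rounding to 2 decimals alone allows a ratio from 5.43 to 6.05. Its level was below all but 0.885% of the genes kept in control and all but 3.33% in FZR1 ko, so this ratio rests on very low values. DNMT3L, a cofactor of the de novo enzymes in germ cells, had 0.10 and 0.37 FPKM. The summed FPKM of DNMT1, DNMT3A and DNMT3B was 31.6 in control and 60.0 in FZR1 ko. DNMT1 made up 77.8% of it in control and 79.1% in FZR1 ko, and DNMT3B 21.8% and 19.9%.

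TET3 and TET2 differed less than UHRF1, DNMT1, DNMT3B and MBD2. TET3 had 4.24 FPKM in the control library against 5.90 in FZR1 ko, a ratio of 1.39. TET2 had 2.16 FPKM in the control library against 2.64 in FZR1 ko, a ratio of 1.22. TET1 had 0.03 and 0.04 FPKM, and rounding alone allows a ratio from 1 to 1.80, so no difference was detectable. TET3 held 65.9% of the summed TET level in control and 68.8% in FZR1 ko. That sum was 6.43 FPKM in the control library against 8.58 in FZR1 ko, and the summed methyltransferases were 4.91 times the summed TET genes in control and 6.99 times in FZR1 ko. MBD2 (chromosome 18) had 6.01 FPKM in the control library against 10.1 in FZR1 ko, a ratio of 1.68.

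To set the members beside all genes, 1 FPKM was added to each value and the log2 of FZR1 ko over control was taken, called the log2 ratio here. The pseudocount of 1 FPKM pulls low genes towards 0. A gene was kept where either library reached 1 FPKM, which left 13554, and 8 of the 10 members were among them, without DNMT3A and TET1. All 8 had a log2 ratio above 0, against 49.6% of the genes kept, which describes a set chosen with these data known. Their median was 0.53, and that of all genes kept was -0.0048. On this scale none of the 8 was at least 2-fold higher, which 6.79% of the genes kept were, and none was at least 2-fold lower, which 6.72% were. At least 1.5-fold higher were 4 of the 8, namely DNMT1, UHRF1, DNMT3B and MBD2, against 18.0% of the genes kept. None was at least 1.5-fold lower, against 17.6%.

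DNMT1 had a log2 ratio of 0.92, and 8.26% of the genes kept were at least as high. UHRF1 also had 0.92, with 8.31% as high. DNMT3B had 0.71, with 13.7% as high, and MBD2 had 0.66, with 15.2% as high. TET3 followed with 0.40, HELLS with 0.27, UHRF2 with 0.25 and TET2 with 0.20, where 37.3% of the genes kept were as high. The members therefore lay in the upper part of the distribution and not at its edge. The 2 members under 1 FPKM in both libraries had 0.55 for DNMT3A and 0.014 for TET1.

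**Figure D2:**
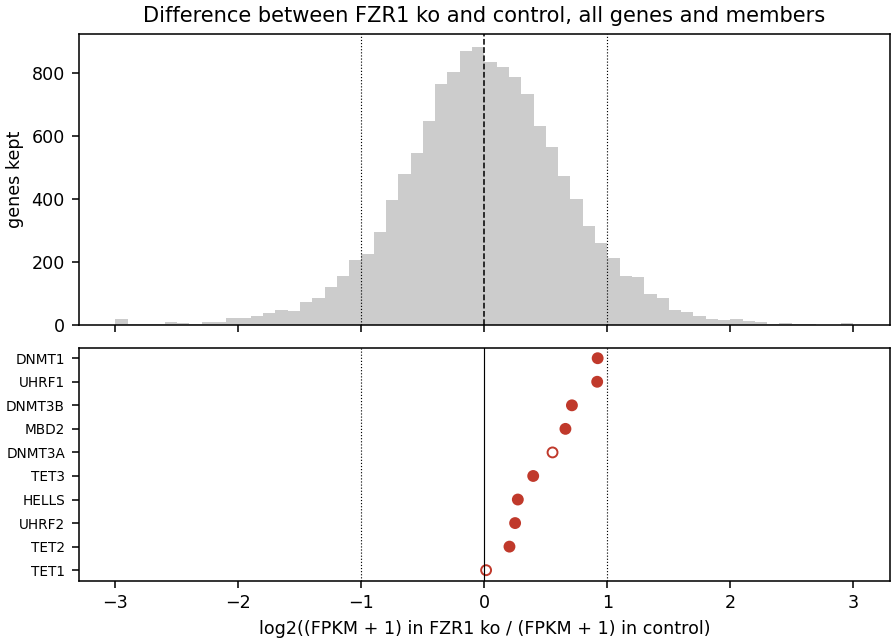
Upper panel, number of genes kept by log2 ratio of FZR1 ko over control in steps of 0.1, with values beyond 3 drawn in the end bars and the median as a dashed line. Lower panel, the 10 members, filled where at least 1 FPKM was reached and open for DNMT3A and TET1; all lie to the right of 0 and to the left of the dotted line for 2-fold.

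The log2 ratio moved with transcript length over all genes. Among 13145 genes kept that have a GENCODE 44 transcript, cut into 10 groups by the length of the longest one, the median log2 ratio was -0.13 in the shortest group and 0.30 in the longest. The share of genes higher in FZR1 ko was 40.9% and 68.1% in these groups. The 8 members kept all have longest transcripts above the median of 3491 bases, from 3723 bases for UHRF2 to 12060 bases for TET3. With the median of the own length group subtracted, an alternative chosen after the data were seen, the log2 ratio was 0.89 for UHRF1, 0.75 for DNMT1, 0.68 for DNMT3B and 0.56 for MBD2. It was 0.26 for UHRF2 and 0.18 for HELLS, and close to 0 for TET3 at 0.098. TET2 turned to -0.095 and TET1 to -0.28. Thus 7 of the 8 remained above 0, with a median of 0.41, and the TET genes were no longer set apart from other long genes. In their own length group 8.29% of genes were as high as UHRF1 and 11.3% as high as DNMT1, but 42.2% were as high as TET3 and 56.5% as high as TET2.

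Position was examined after the data were seen, because FZR1, UHRF1 and DNMT1 all lie on chromosome 19, with UHRF1 1.40 Mb from FZR1 and DNMT1 5.23 Mb from UHRF1. The 83 protein-coding genes kept within 2 Mb of UHRF1 had a median log2 ratio of 0.23, with 53 higher and 30 lower in FZR1 ko. Of these genes 7 were as high as UHRF1. Around FZR1 84 such genes had a median of 0.17, with 54 higher and 30 lower, and many of them also lie around UHRF1. The 76 genes around DNMT1 had a median of -0.061, with 34 higher and 42 lower, and 3 of them were as high as DNMT1. DNMT1 thus stood further above its surroundings than UHRF1 did. Around DNMT3B the median of 33 genes was 0.26, with 5 as high as DNMT3B. Around MBD2 there were only 4 such genes, with a median of -0.48, and none was as high as MBD2. The 5 genes around TET2 had a median of 0.17 and the 40 around TET3 a median of 0.18, with 2 and 8 as high as the member. For UHRF2 the median of 17 genes was -0.036 with 6 as high, and for HELLS that of 17 genes was 0.10 with 7 as high, so both lay among their neighbours. The gene copy number of the clone was not measured, and its part in these differences was not tested.

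**Figure D3:**
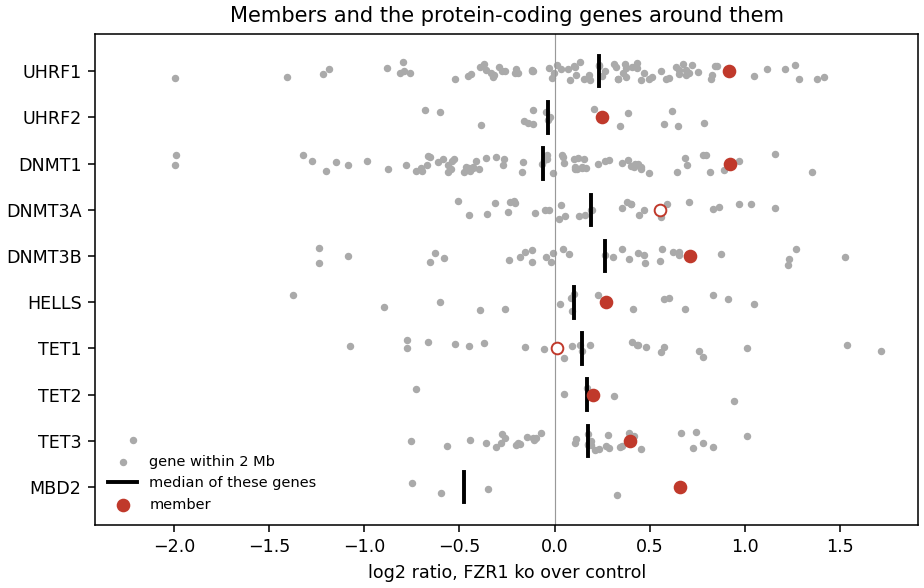
Log2 ratio of each member (red, open where under 1 FPKM in both libraries) and of the protein-coding genes kept within 2 Mb of it (grey), with a black bar for the median of these genes. DNMT1 at 0.92 lies far to the right of its bar at -0.061, while TET2 at 0.20 lies beside its bar at 0.17.

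Partners of the maintenance machinery did not move as a block. Of 16 partner genes kept, 9 were higher and 7 lower in FZR1 ko, with a median log2 ratio of 0.19, or 0.094 with the length trend removed, and 2 were at least 2-fold higher. These were EHMT1, a histone H3K9 methyltransferase, with 2.37 FPKM in the control library against 9.74 in FZR1 ko, and CDCA7L, a relative of the HELLS activator CDCA7, with 23.0 and 53.5 FPKM. CDCA7 itself had 13.0 and 18.9 FPKM. LIG1, the DNA ligase that recruits UHRF1 to replication forks, had 16.7 FPKM in the control library against 28.9 in FZR1 ko. PCNA, the sliding clamp that binds DNMT1, went the other way, with 328 FPKM in the control library against 212 in FZR1 ko, and so did TRIM28, a corepressor, with 297 and 202 FPKM. The deacetylase HDAC1, which also sits in NuRD, had 79.3 and 92.8 FPKM. USP7, a deubiquitinase that binds UHRF1 and DNMT1, had 12.0 and 9.75 FPKM.

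Other methyl-CpG binders lay on both sides. Of 8 kept, 3 were higher and 5 lower, with a median of -0.32, which was -0.067 with no filter on low values. MBD4, a glycosylase that removes thymine from mismatches at CpG, was at least 2-fold lower, with 80.3 FPKM in the control library against 37.1 in FZR1 ko. MBD3 had 48.2 and 46.0 FPKM, and MBD1 had 36.8 and 24.4 FPKM. Among 13 genes of the NuRD complexes, which hold either MBD2 or MBD3 and where MBD3 was counted, 10 were higher and 3 lower, with a median of 0.18. The highest were CDK2AP1, with 176 and 121 FPKM, and RBBP7, with 107 and 121 FPKM. MTA1, with 14.1 and 33.5 FPKM, and MTA3, with 4.08 and 13.6 FPKM, were at least 2-fold higher, whereas their relative MTA2 had 68.8 FPKM in the control library against 49.7 in FZR1 ko.

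Genes that act after the TET enzymes or supply their cofactors were split, with 10 of 17 higher, 6 lower and a median of 0.068, and MBD4, which this list also holds, was its only gene at least 2-fold apart. The abasic site nuclease APEX1 had 127 and 118 FPKM. UNG, a uracil glycosylase, had 148 FPKM in the control library against 77.0 in FZR1 ko, and TDG, the glycosylase that removes oxidised methylcytosine, had 38.2 and 28.7 FPKM. Of the isocitrate dehydrogenases that make the 2-oxoglutarate TET enzymes use, IDH1 had 26.5 and 52.5 FPKM, and IDH2 had 26.5 and 20.9 FPKM. Of 13 genes of the methyl donor cycle kept, 6 were higher and 7 lower, with a median of -0.061, which turned to 0.25 where both libraries had to reach 1 FPKM. SHMT1, a serine hydroxymethyltransferase, was at least 2-fold higher with 8.49 and 18.5 FPKM, while its mitochondrial form SHMT2 had 179 and 132 FPKM. MAT2A, which makes S-adenosylmethionine, had 172 and 151 FPKM, and AHCY, which clears its product, had 95.7 and 148 FPKM.

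Cell cycle genes were set beside the members. Of 30 other G1/S and replication genes, 11 were higher and 19 lower in FZR1 ko, with a median log2 ratio of -0.052. At least 2-fold lower were CCNE2 (77.3 and 24.3 FPKM), CCNE1 (56.7 and 22.9 FPKM), E2F1 (83.4 and 38.8 FPKM) and GINS3 (30.4 and 14.5 FPKM). At least 2-fold higher were POLA1, with 3.01 FPKM in the control library against 9.63 in FZR1 ko, and PRIM1, with 11.05 and 24.97 FPKM, which encode subunits of the DNA polymerase that starts replication. FEN1 (276 and 167 FPKM), TYMS (194 and 194 FPKM) and MCM7 (155 and 171 FPKM) were among the highest of the list. Of 20 G2/M genes 8 were higher and 12 lower, with a median of -0.13 and none 2-fold apart. UBE2C, an E2 enzyme of the APC/C, had 286 and 155 FPKM, CDK1 had 116 and 80.8 FPKM, and TPX2 had 72.3 and 101 FPKM. Of 10 widely expressed genes 5 were higher and 5 lower, with a median of -0.0072, and EMC7 was at least 2-fold lower with 138 and 58.2 FPKM.

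Germline genes that DNA methylation often keeps silent were mostly near 0. Of 25 listed, 22 were in the table, 5 of these were listed at 0 in both libraries, and only 3 reached 1 FPKM. MAGEA6 had 69.0 FPKM in the control library against 37.4 in FZR1 ko, MAGEA3 had 6.73 and 3.98 FPKM, and PAGE1 had 1.55 and 2.04 FPKM. MAGEA3 and MAGEA6 are near-identical, so their reads may be split between them. Of the 19 under 1 FPKM in both libraries, 13 were lower in FZR1 ko, 1 was higher and 5 were at 0 in both. Of all 9479 genes under 1 FPKM in both libraries, 3701 were lower, 2392 higher and 3386 equal. At such levels and unknown depth these counts are a description only.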

How the data were processed

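RNA from 2 cisplatin treated samples, control and FZR1 ko, was sequenced, 1 library each. The authors deposited FPKM with 2 decimals, 1 row for each Entrez gene. The methods name Bowtie2 and RSEM on hg38, and the submitters' processing notes list Trimmomatic 0.36, HISAT2 2.1.0, Bowtie2 2.2.5 and RSEM. The Bowtie2 version of the methods differs. The annotation version is not given in the sources used here. Of 24663 rows, 1630 had no value, and 22925 of the other 23033 IDs matched a RefSeq symbol (GRCh38.p14).

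Log2 ratios used a pseudocount of 1 FPKM, and a gene was kept where either library reached 1 FPKM. A share of genes past 2-fold or 1.5-fold, ties included, served as background. The fold computation was tested on simulated data. Transcript lengths came from GENCODE 44 and matched 97.0% of the genes kept. Promoter sequences came from RefSeq, and proteins were not used here. Genes named were the members, FZR1 and, of each list, up to 5 genes past 2-fold and up to 3 of its highest. ESR1, PGR, GATA3, DNMT3L, USP7, CDCA7, LIG1, MTA2, TDG, IDH1, IDH2, GINS3, CDH1, KRT19, TFF1 and FOXA1 were added after their values were seen. KRT5, KRT14, TP63, FN1, SNAI2, ZEB1 and ZEB2 were also added in this way. The members and lists were chosen with earlier results of these data known. Alternatives were other pseudocounts, filters, centring, scaling, a 1.5-fold threshold, protein-coding genes only and the removal of the length trend. Python 3.11.15, numpy 2.4.6, pandas 2.3.3 and matplotlib 3.10.9 were used.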

Additional observations from a re-analysis of the deposited data

How the results depend on the processing

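Removal of the length trend was chosen after seeing the data. No paired analysis was possible because each genotype has 1 library and no result comes from a test, and no replicate could be left out. Of all genes kept, 1831 were at least 2-fold apart, against 2824 where 0.1 FPKM was added, 453 where 5 FPKM was added and 4833 at 1.5-fold, by the construction of these settings. Members at least 2-fold apart, 0 at first, numbered 4 at 1.5-fold and 0 under every other setting run. The median log2 ratio of the members kept, 0.53, was 0.35 with a pseudocount of 5 FPKM and 0.41 with the length trend removed, and moved by less than 0.1 under the others. Removing the length trend also turned TET1 to -0.28 and TET2 to -0.095, and 7 of 8 members kept were then above 0. Under the other settings all members kept were above 0. Over 6 alternatives UHRF1 ranged from 0.82 to 0.94, DNMT1 from 0.75 to 0.95, DNMT3B from 0.51 to 0.78 and MBD2 from 0.45 to 0.74. DNMT3A, under 1 FPKM in both libraries, ranged from 0.14 to 1.80. Over all lists and settings, 85 medians moved by less than 0.1 (that of the maintenance partners from 0.19 to 0.094 with the length trend removed), 9 by more with the same sign or to 0, and 2 reversed. With at least 1 FPKM in both libraries the methyl donor list turned from -0.061 to 0.25 and the blood, vessel and fibroblast list from -0.69 to 0.021, as fewer genes were left. The unknown depth limits the lowest members most.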

Other observations

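Chromosomes differed in their typical log2 ratio. Over the 585 protein-coding genes kept on chromosome 16 the median was -0.38, whereas on the other autosomes and chromosome X it ran from -0.12 on chromosome 1 to 0.21 on chromosome 18. On the chromosomes of the members it was -0.031 for chromosome 19, 0.028 for chromosome 20, 0.12 for chromosome 10, 0.13 for chromosome 4, 0.14 for chromosome 9 and 0.17 for chromosome 2. No member lies on chromosome 16, and the part of gene copy number was not tested.

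CDH2, the N-cadherin gene, was at least 2-fold higher among the mesenchymal and basal markers, with 2.97 FPKM in the control library against 15.3 in FZR1 ko. The list as a whole had 2 of 7 genes higher and 5 lower. In the separate list of blood, vessel and fibroblast markers CDH5, a cadherin of vessel cells, had 3.64 FPKM in the control library against 0.33 in FZR1 ko.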
